A study of Mus musculus with 24 samples.

Results

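Bone morphogenetic protein (BMP) ligands and the genes that BMP signalling is best known to switch on were followed through 24 RNA-seq libraries of the Cep135-deficient mouse neocortex. The 10 genes were chosen by symbol: the ligands Bmp4, Bmp6 and Bmp7, the inhibitory Smad Smad6, the Id genes Id1, Id2, Id3 and Id4, and the homeobox genes Msx1 and Msx2. Each matched 1 row of the 54658 genes in the deposited table. Cep135 codes for a centriole assembly protein, and the study asked how its loss changes developing cortical progenitors. All embryos came from matings of Cep135 (+/-) mice, and no drug was given. The mutants were Cep135 (-/-), carrying a germline deletion in every cell, and the controls Cep135 (+/+). Neocortices were taken at E11.5 from 3 mutants (A, B and C) and 3 controls (D, E and F), and at E14.5 from 3 mutants (1, 2 and 6) and 3 controls (3, 4 and 5). Cells dissociated from the dorsal telencephalon of the same 6 E14.5 embryos were grown in suspension for 12 hours and for 24 hours, to incipient neurospheres, in medium with epidermal and fibroblast growth factors, so that each of these embryos gave 3 libraries. The 6 E14.5 embryos shared a litter prefix. At E11.5, by their titles, A and D carried one litter prefix and B, C, E and F another. The descriptions and column labels of mutants B and C gave a different prefix, which no control shared. The cortex of mutant 6 was taken as E14.5 from its title and source, although its description gave E11.5.

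BMPs are secreted dimers of the TGF-beta family. They bind paired type I and type II serine/threonine kinase receptors, the receptors phosphorylate Smad1, Smad5 and Smad9, and these enter the nucleus with Smad4. Smad6 is a target that feeds back to block the pathway. Id proteins are helix-loop-helix factors without a DNA-binding region: they trap E proteins, the partners of proneural factors, and are known for holding progenitors back from differentiation. Msx1 and Msx2 are homeodomain repressors induced by BMPs. In the forebrain the dorsal midline, which forms the cortical hem and the choroid plexus, is the classical BMP source, and the meninges around the cortex also make BMPs.

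Values are normalized read counts: reads at transcript 3' ends divided by 1 size factor per library. They can be compared between libraries for the same gene and are not compared between genes here. Libraries held 4732781 to 11645213 reads. 3 reads were worth 1.94 to 5.06 normalized counts, depending on the library, so single-digit values carry large counting error. Cep135 itself could not check the labels: it was 171 to 375 in controls and 173 to 336 in mutants. Reads were counted at 3' ends and the deletion lies upstream, and the reason for the similar levels was not tested. The summed normalized count of 8 apical progenitor markers was 8347 to 18513 over the 24 libraries, and none of the 8 was at 0 throughout a group. The cortices also held meningeal and fibroblast markers (8 genes, sum 1587 to 8297) and endothelial markers (8 genes, sum 1080 to 1554). In the cultures the sums were 118 to 302 and 25.3 to 125. The libraries are bulk RNA, in which fewer cells of a type and less RNA per cell cannot be told apart.

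The 10 genes are protein-coding and scattered over the genome (GRCm38, GENCODE). Of the ligands, Bmp4 lies on the minus strand at chr14:46383520-46390669, Bmp6 on the plus strand at chr13:38345107-38500302 and Bmp7 on the minus strand at chr2:172868012-172940321. Smad6 lies on the minus strand at chr9:63953076-64022059. The Id genes lie at chr2:152736251-152737410 (Id1, plus), chr12:25093799-25097140 (Id2, minus), chr4:136143497-136145755 (Id3, plus) and chr13:48261228-48266026 (Id4, plus). Msx2 is at chr13:53466884-53473074 and Msx1 at chr5:37820485-37824583, both on the minus strand; Msx1 shares its chromosome with Cep135, 38.8 Mb away.

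The 250 bases before the RefSeq transcription start, on GRCm38.p6, were matched by symbol for 8 of the 10 genes. Id1 and Bmp7 were not matched. The windows of Id2, Id3, Bmp6 and Msx2 lie inside the GENCODE span of the gene, whose start is further upstream. Shown are the 3 members with the largest fall between the ages (Bmp4, Id3, Msx1) and the pair that parted in culture (Id2, Id4). All are written 5' to 3' on the gene's strand. Capitals mark GGCGCC, a GC-rich letter string of the kind that Smad1 and Smad5 bind.
Bmp4 (chr14:46390670-46390919, minus strand): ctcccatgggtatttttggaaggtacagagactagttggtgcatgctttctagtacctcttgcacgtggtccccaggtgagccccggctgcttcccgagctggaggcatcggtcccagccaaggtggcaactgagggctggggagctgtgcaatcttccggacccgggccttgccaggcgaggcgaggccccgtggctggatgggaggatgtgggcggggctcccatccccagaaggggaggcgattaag
Id3 (chr4:136143572-136143821, plus strand): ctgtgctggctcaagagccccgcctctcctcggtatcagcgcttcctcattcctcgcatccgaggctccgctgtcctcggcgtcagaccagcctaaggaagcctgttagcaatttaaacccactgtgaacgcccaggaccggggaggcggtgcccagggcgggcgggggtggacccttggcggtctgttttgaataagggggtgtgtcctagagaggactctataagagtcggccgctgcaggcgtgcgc
Msx1 (chr5:37824586-37824835, minus strand): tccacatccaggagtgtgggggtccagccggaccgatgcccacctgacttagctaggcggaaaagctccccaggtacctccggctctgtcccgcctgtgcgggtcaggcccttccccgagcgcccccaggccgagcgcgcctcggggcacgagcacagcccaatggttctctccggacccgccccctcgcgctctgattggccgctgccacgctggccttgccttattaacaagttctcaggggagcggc
Id2 (chr12:25096093-25096342, minus strand): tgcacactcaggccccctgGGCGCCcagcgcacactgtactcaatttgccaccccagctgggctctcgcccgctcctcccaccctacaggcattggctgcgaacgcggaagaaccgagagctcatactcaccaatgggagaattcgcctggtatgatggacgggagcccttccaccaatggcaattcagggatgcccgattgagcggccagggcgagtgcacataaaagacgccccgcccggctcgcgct
Id4 (chr13:48260866-48261115, plus strand): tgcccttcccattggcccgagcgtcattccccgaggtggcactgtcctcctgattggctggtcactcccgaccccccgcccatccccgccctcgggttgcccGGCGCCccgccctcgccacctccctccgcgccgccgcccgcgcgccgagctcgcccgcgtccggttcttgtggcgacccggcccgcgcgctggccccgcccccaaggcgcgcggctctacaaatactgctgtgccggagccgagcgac
GGCGCC reads the same on both strands and was found in 2 of the 8 windows, those of Id2 and Id4, against 9.59% of 32841 windows of this length. GTCT, the short string bound by Smad4, searched on both strands as GTCT or AGAC, was found in 6 of the 8, against 82.9% of all windows; the 2 strings cannot overlap. The windows of Id4 and Msx1 held no GTCT. These matches describe letters in a window and not binding sites.

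**Figure D1:**
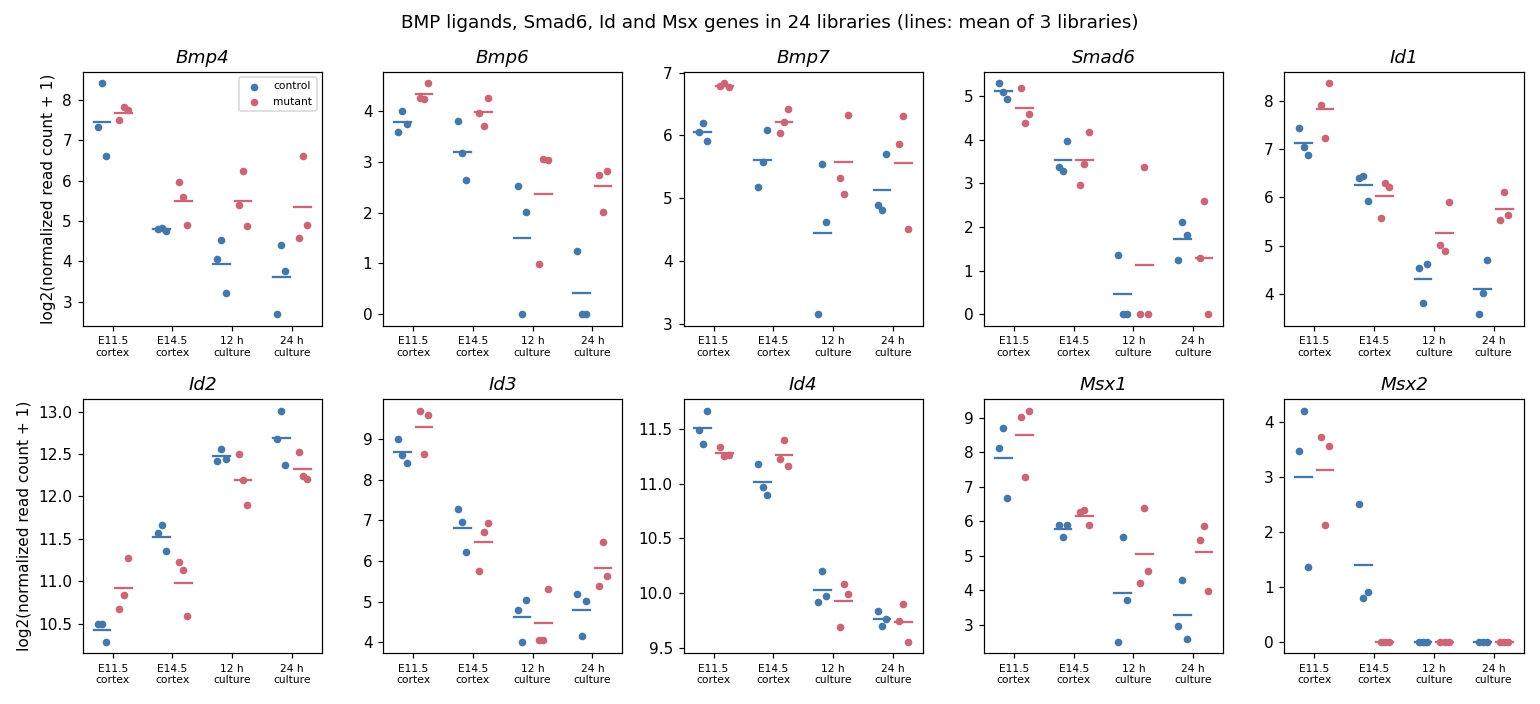
Each panel plots 1 gene: the vertical axis is log2(normalized read count + 1), the horizontal axis the 4 conditions, points are libraries (blue control, red mutant, 3 each) and lines the group means. Bmp4, Id1, Id3, Msx1 and Smad6 sit highest at E11.5, Id2 rises to the cultures, Id4 falls to them, and Msx2 is at 0 in all 12 cultures.

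Between E11.5 and E14.5 most of the members fell. With limma on log2(normalized read count + 1), averaged over the genotypes, 8 of the 9 members with a mean count of at least 10 passed an adjusted p of 0.05, 7 lower and 1 higher at E14.5. Over all 13650 genes tested the share past the threshold was 53.6%, 29.5% lower and 24.1% higher. The median difference of the 9 was -1.33 on the log2 scale, and that of all genes -0.08. The E14.5 cortices lay wholly below the E11.5 cortices for 5 of the 9, Bmp4, Smad6, Id1, Id3 and Msx1, as for 14.9% of all genes, and wholly above for none, as for 15.5%. The tenth member, Msx2, was below the count minimum. The 2 ages came from different litters, so age and litter cannot be told apart.

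Bmp4, the dorsal midline ligand, fell the most. At E11.5 it stood at 97.2, 197 and 340 (lowest, median and highest of 6 libraries), and at E14.5 at 26.2, 28.3 and 62.1. The ages did not overlap, and the difference was -2.42 on the log2 scale (SE 0.25, limma adjusted p = 1.1e-06). Bmp7, a ligand made in the hem, choroid plexus and meninges, moved less: 59.1, 90.5 and 113 at E11.5 against 35.3, 65.7 and 84.6 at E14.5, with overlapping ranges and a difference of -0.51 (SE 0.15, limma adjusted p = 0.011). Bmp6, a ligand of the same subgroup as Bmp7, was scarce at both ages, 11.1 to 22.4 against 5.23 to 18, and its difference of -0.47 (SE 0.26) did not pass (limma adjusted p = 0.14). Of the ligands, then, Bmp4 separated the ages in every library while Bmp6 and Bmp7 overlapped.

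Smad6, the feedback inhibitor, also separated the ages. Its 6 libraries gave 20.1, 31.5 and 38.3 at E11.5 and 6.77, 9.67 and 17.2 at E14.5, a difference of -1.38 (SE 0.26, limma adjusted p = 0.00042). Msx1 stood at 102, 346 and 590 at E11.5 and at 45.7, 58.6 and 79.5 at E14.5, again without overlap, a difference of -2.20 (SE 0.33, limma adjusted p = 5.2e-05). Msx2 was 1.55 to 17.6 at E11.5. At E14.5 it was 4.71, 0.726 and 0.872 in controls 3, 4 and 5 and 0 in the 3 mutants. The limit that 0 reads allow, 3 reads in a library, is 2.18 to 3.53 normalized counts in these cortices, so only control 3 was above it.

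The Id genes split. Id3 fell as much as Bmp4, from 339, 454 and 828 to 53.1, 113 and 155 (difference -2.35, SE 0.24, limma adjusted p = 9.8e-07). Id1, its close relative in sequence and in response to BMP, fell from 116, 161 and 328 to 46.3, 75.4 and 85.7 (-1.33, SE 0.19, limma adjusted p = 3.6e-05). Neither gene overlapped between the ages. Id4, known from proliferating cortical progenitors, moved little, from 2444, 2605 and 3252 to 1907, 2308 and 2707 (-0.26, SE 0.08, limma adjusted p = 0.015). Id2, which is also expressed in young cortical neurons, rose from 1251, 1534 and 2471 to 1535, 2506 and 3234 (0.58, SE 0.12, limma adjusted p = 0.0011). Both Id2 and Id4 overlapped between the ages. Summed markers of postmitotic neurons (8 genes) went from 8819 to 13207 at E11.5 to 29955 to 42242 at E14.5, and the part of this in the Id2 difference was not tested.

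At E11.5 the Msx genes were lowest where the meningeal marker sum was lowest. The meningeal sum was 2152 in control F and 3943 in mutant B, against 6010 to 8297 in the other 4 cortices. Msx1 was 102 in F and 156 in B and 276, 416, 517 and 590 in D, E, A and C. Msx2 was 1.55 and 3.35 in F and B and 10.1 to 17.6 in the others. These 2 libraries, a control and a mutant, were the lowest of the 6 in both Msx genes. By inferred sex A, C and E were female and B, D and F male. Every female was above every male in both Msx genes, and a sex effect was not itself tested. The meningeal sum at E14.5 was 1587 to 2658, and of its 8 genes 7 passed as lower than at E11.5 and 1 as higher. Its part in the falls of Msx1, Id3 and Bmp4 between the ages was not tested. Without F and B, an alternative chosen after the data were seen, 7 of the 9 members passed, Id4 no longer (-0.22, limma adjusted p = 0.062).

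**Figure D2:**
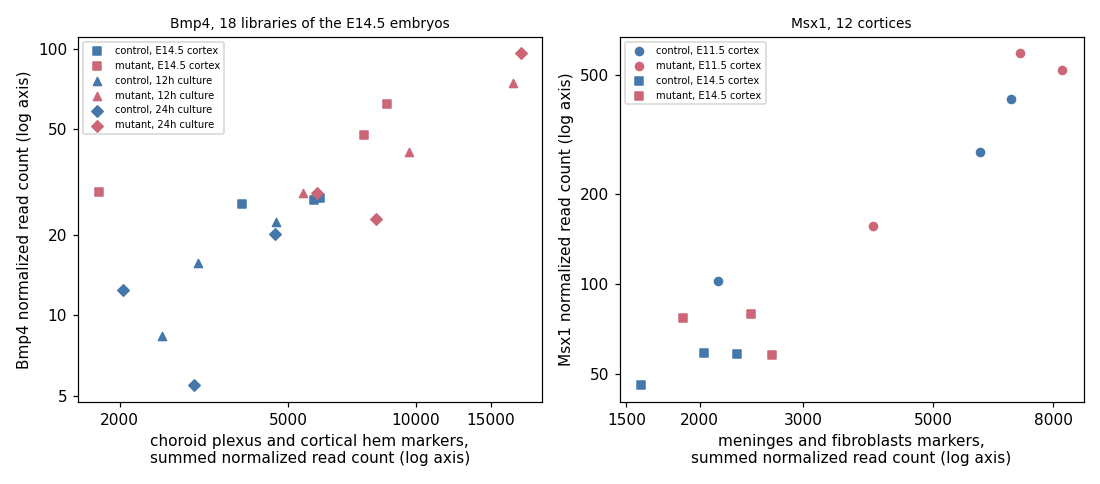
Left, Bmp4 normalized read count against the summed count of 13 choroid plexus and cortical hem markers in the 18 libraries of the E14.5 embryos; right, Msx1 against the sum of 8 meningeal and fibroblast markers in the 12 cortices; all axes are logarithmic, blue is control, red mutant, and symbols mark the condition. Bmp4 is highest where the choroid plexus and hem sum is highest, in the cultures of mutant 2, where most of the sum is Ttr. Among E11.5 cortices Msx1 is lowest in the 2 with the lowest meningeal sums, a control and a mutant.

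In culture Id1, Id3, Id4 and Msx1 were lower than in the E14.5 cortices and Id2 was higher. Between the E14.5 cortex and 12 hours, averaged over the genotypes, 5 of the 7 members tested passed, 4 lower and 1 higher, where 33.9% of 13547 genes passed (17.7% lower, 16.2% higher). The median difference of the 7 was -1.16, and that of all genes -0.06. The 12-hour cultures lay wholly above the cortices for Id2, as for 6.71% of all genes, and wholly below for Id3 and Id4, as for 7.45%. Bmp6, Smad6 and Msx2 were below the count minimum over these 18 libraries. Tissue and culture differ in medium, dissociation and cell makeup at once, and these cannot be told apart.

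Id2 was 3810, 5512 and 6038 after 12 hours (lowest, median, highest), above all 6 E14.5 cortices, a rise of 1.08 on the log2 scale (SE 0.13, limma adjusted p = 2.1e-06). It was 4716, 5607 and 8259 after 24 hours. Id4 went the other way, to 823, 1013 and 1175 at 12 hours and 752, 862 and 956 at 24 hours, below every cortex (-1.16 from cortex to 12 hours, SE 0.09, limma adjusted p = 1.2e-08). So the 2 Id genes that changed least between the ages moved in opposite directions when cells were cultured, in each of the 6 embryos. The plot of Id2 and Id4 by embryo shows both.

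**Figure D3:**
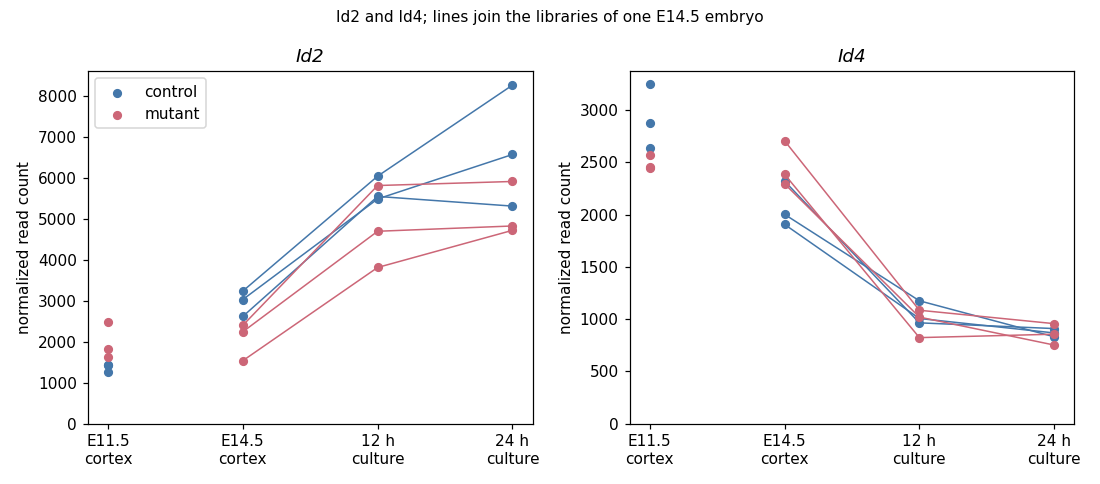
Normalized read counts of Id2 (left) and Id4 (right) in the 4 conditions; points are libraries, blue control, red mutant, and lines join the cortex, 12-hour and 24-hour libraries of 1 E14.5 embryo. Id2 rises and Id4 falls from cortex to 12 hours along all 6 lines, and at E14.5 the 3 mutants lie below the 3 controls in Id2.

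Id3 dropped to 15.3, 21.3 and 38.5 at 12 hours and 16.9, 38.2 and 88.1 at 24 hours (-2.10 from cortex to 12 hours, SE 0.32, limma adjusted p = 4.4e-05). Id1 dropped to 12.9, 26.0 and 59.1 and then stood at 10.9, 35.1 and 67.8 (-1.35, SE 0.28, limma adjusted p = 0.00081). For Id3 the 12-hour cultures lay below every cortex, while Id1 overlapped through mutant 1's cortex at 46.3. Msx1 at 12 hours ranged from 4.72 in control 3 to 82.1 in mutant 2 (-1.49, SE 0.48, limma adjusted p = 0.021). Its call was lost with edgeR on whole reads (-1.08, edgeR adjusted p = 0.072), without the 12-hour library of control 3 (-1.13, limma adjusted p = 0.067) and without that of mutant 1 (-1.28, limma adjusted p = 0.058).

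Of the ligands, Bmp4 was lower at 12 hours than in the cortex in 5 of the 6 embryos and did not pass the test: it gave 8.35, 25.5 and 74.7 at 12 hours and 5.46, 21.6 and 96.2 at 24 hours, a difference of -0.42 from cortex to 12 hours (95% interval -1.24 to 0.40, limma adjusted p = 0.43). Bmp7 was 7.87, 35.8 and 78.8 and then 21.8, 40.0 and 77.9 (-0.91, SE 0.38, limma adjusted p = 0.066). Without the 12-hour library of control 4, of mutant 6 or the 24-hour library of mutant 6, Bmp7 passed (-1.19, -1.10 and -0.91, limma adjusted p = 0.017, 0.029 and 0.048). Bmp6 was 0 to 7.37 over the 12 cultures and Smad6 0 to 9.47. Msx2 had no read in any of the 12, which allows up to 2.15 to 5.06 normalized counts in a library. Endothelial markers, 8 of 8, and meningeal markers, 7 of 7 tested, were lower in culture, and their part in these values was not tested.

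Between 12 and 24 hours none of the 7 members passed with limma, edgeR or DESeq2, where 0.664% of all genes passed with limma. With each tool 2 members had an unadjusted p below 0.05, where 12% of all genes had with limma. With limma these were Id3 (0.76, SE 0.32, adjusted p = 0.34) and Id4 (-0.23, SE 0.09, adjusted p = 0.34).

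**Figure D4:**
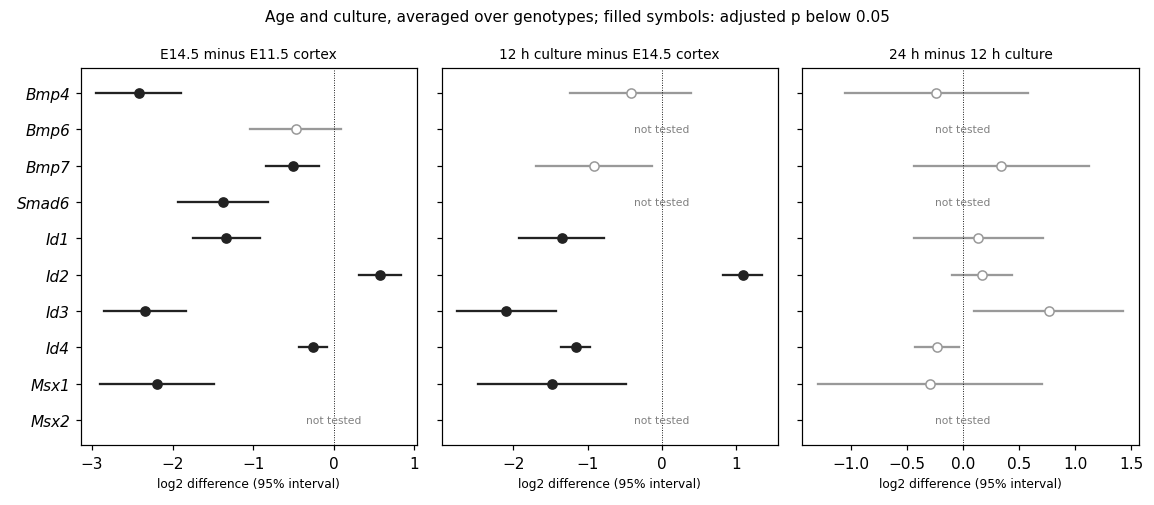
Log2 difference of each member with its 95% interval for age (left), culture for 12 hours (middle) and 24 against 12 hours (right), from limma and averaged over the genotypes; filled symbols passed an adjusted p of 0.05, open ones did not, and members below the count minimum are marked as not tested. Bmp4, Id3 and Msx1 show the largest falls with age, all below -2, and Id2 is the only member tested that passed as higher in the left and middle panels.

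The order of the levels over the 4 conditions was shared by 9 of the 10 members down to E14.5: by mean level E11.5 was highest and E14.5 next, with Id2 the exception. The step from E11.5 to E14.5 had no overlap between libraries for Bmp4, Smad6, Id1, Id3 and Msx1, a fall without overlap that 14.9% of all genes showed. Below E14.5 the 2 culture times overlapped for every member, so their order is not resolved. Id2 had the reverse order, with 24 hours highest and E11.5 lowest. Of the neighbours in that order, only the 12-hour cultures and the E14.5 cortices did not overlap. Both culture times lay above every cortex.

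Between mutants and controls no member passed with limma within any of the 4 conditions. At E11.5, 0 of the 9 members tested passed with limma, against 0.0149% of all 13406 genes. An unadjusted p below 0.05 was reached by 4 of them, Bmp7, Id1, Id2 and Id3, all higher in mutants, where 7.39% of all genes reached it. The 3 mutants lay wholly above or below the 3 controls for 4 of the members, Bmp6, Bmp7 and Id2 above and Id4 below; 13.3% of all genes separated so, 7.16% above and 6.11% below. With 3 against 3 libraries an exact permutation test cannot go below 0.10. Whole reads of control D were not used, so edgeR and DESeq2 were not run at E11.5.

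For Bmp7 mutants A, B and C gave 109, 113 and 108, and controls D, E and F 65.5, 72.8 and 59.1. The mutants lay close together and above every control, 1.67-fold higher on the log2(count + 1) scale (0.74, SE 0.16, limma adjusted p = 0.38; over the alternatives 0.29 to 1.0). Bmp6 gave 18.1, 17.8 and 22.4 against 11.1, 15.1 and 12.4 (0.56, SE 0.32, limma adjusted p = 0.71). Bmp4 did not separate: the mutants gave 179, 224 and 215, and the controls 160, 340 and 97.2. For the ligands the mutant levels were thus higher in 3 of 3 libraries for Bmp6 and Bmp7 and within the control range for Bmp4. Choroid plexus and cortical hem markers (13 genes) summed to 4000 to 4411 in the E11.5 mutants and 3161 to 3669 in the controls, without overlap. Endothelial markers (8 genes) summed to 1383 to 1554 against 1177 to 1356, also without overlap. The part of either in the ligand values was not tested.

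Id2 counts of 1626, 1829 and 2471 in A, B and C stood against 1441, 1442 and 1251 in D, E and F (0.50, SE 0.15, limma adjusted p = 0.58). Id1 was 239, 149 and 328 against 172, 131 and 116 (0.72, SE 0.26, limma adjusted p = 0.61). Id3 was 828, 395 and 769 against 514, 391 and 339 (0.63, SE 0.26, limma adjusted p = 0.65). For Id1 and Id3 it was mutants A and C that stood high, while B lay within the control range. A and C also had liver markers, a sum of 177 and 720 over 7 genes against 5.44 to 15.6 in the other 4. They were the 2 highest in meningeal markers too, and the part of either marker set was not tested. By inferred sex A and C were female and B male, while control E was female and D and F male. With a term for sex 0 members passed. Id4 was 2575, 2444 and 2454 against 2875, 2635 and 3252 (-0.22, SE 0.11, limma adjusted p = 0.68). Msx1 followed A and C as well, 517, 156 and 590 against 276, 416 and 102 (0.67, SE 0.54, limma adjusted p = 0.77). Its difference was 0.10 without control F and 1.28 without mutant B. Smad6 was 35.5, 20.1 and 23.1 against 38.3, 33.5 and 29.5, with A inside the control range. Ventral telencephalic markers (7 genes) summed to 886 to 1092 in the E11.5 mutants and 1307 to 1535 in the controls, and their part in these values was not tested.

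At E14.5, 0 of 9 members passed with limma, against 0.0736% of 13583 genes. With edgeR and DESeq2 on whole reads it was also 0. An unadjusted p below 0.05 was reached by 3 members with limma, where 9.1% of all genes reached it, by 2 with edgeR and by 1 with DESeq2. In every comparison the share of all genes below that unadjusted p was taken with limma only. Bmp4 (mutants above) and Id2 (mutants below) separated the genotypes, where 13.7% of all genes did, 7.02% above and 6.71% below. For Bmp4 mutants 1, 2 and 6 gave 62.1, 47.5 and 29.0, against 27.1, 27.6 and 26.2 for controls 3, 4 and 5, with mutant 6 just above the controls (0.69, SE 0.30, limma adjusted p = 0.54; 0.45 without mutant 1 and 0.10 with a term for embryo sex).

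Id2 at E14.5 reached 2397, 2240 and 1535 in mutants 1, 2 and 6, against 3027, 3234 and 2615 in controls 3, 4 and 5, lower in 3 of 3 (-0.54, SE 0.17, limma adjusted p = 0.45; over the alternatives 0.11 to 1.0). With a term for embryo sex, inferred from Xist and Y-linked genes, the difference was -0.94. Both the female embryos of this litter were mutants, 1 and 2. At E11.5 the mutants had been higher in 3 of 3. The difference between the 2 genotype effects was -1.04 (SE 0.25, unadjusted p = 0.00074, limma adjusted p = 0.50), and no gene of 13650 passed in that limma test, while 7.84% had an unadjusted p below 0.05. The summed neuronal markers were 29955 to 32084 in the E14.5 mutants and 39456 to 42242 in the controls, without overlap, and at E11.5 9274 to 9997 and 8819 to 13207, with overlap. Their part in the Id2 values was not tested. Id1 (-0.95, SE 0.39) and Id4 (0.47, SE 0.16) also had an unadjusted p below 0.05 between the ages and an adjusted p of 0.62 with limma.

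The other 7 members tested overlapped between the genotypes at E14.5. In the same embryo order Bmp7 gave 64.4, 72.9 and 84.6 against 35.3, 46.5 and 67.1; only control 5 reached the mutants (0.61, SE 0.26, limma adjusted p = 0.53). Bmp6 was 14.7, 12.1 and 18 against 12.9, 7.98 and 5.23. Id4 was 2386, 2707 and 2295 against 2321, 2003 and 1907 (0.25, SE 0.13, limma adjusted p = 0.59). Mutants 1 and 2 were thus above every control in Id4, and also in Msx1, at 76.8 and 79.5 with mutant 6 at 57.9, against 58.8, 45.7 and 58.4 in the controls. Id1 was 46.3, 77.3 and 73.6 against 83.5, 85.7 and 60.2. Id3 was 53.1, 104 and 122 against 155, 123 and 73.2. Smad6 was 6.77, 9.94 and 17.2 against 9.41, 8.71 and 14.8. These last 3 showed no common direction over the embryos. Microglial markers (7 genes) summed to 789 to 935 in the E14.5 mutants and 408 to 468 in the controls, and the part of this in the members' values was not tested.

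Over the 12 cortices, with age as a term, Bmp7 was 0.67 higher in mutants on the log2 scale (SE 0.15, 95% interval 0.35 to 0.99) with a limma adjusted p of 0.15. An exact two-sided permutation of genotype within age gave p = 0.010 for Bmp7 and for Bmp6 (0.67, SE 0.26, limma adjusted p = 0.46), unadjusted over the 10 members tested; 0.005 is the smallest this design allows. Bmp4 was 0.46 higher (SE 0.25, limma adjusted p = 0.61; permutation p = 0.15). None of the 9 members tested passed with limma, where 0.139% of all genes did, and 2, Bmp6 and Bmp7, had an unadjusted p below 0.05, where 8.71% did. No member separated the genotypes at both ages in 1 direction, as 1.33% of all genes did. Without the E14.5 cortex of control 5, the control with the most Bmp7 at that age, Bmp7 passed (0.78, limma adjusted p = 0.031), and over all the alternatives its adjusted p was 0.031 to 0.68.

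**Figure D5:**
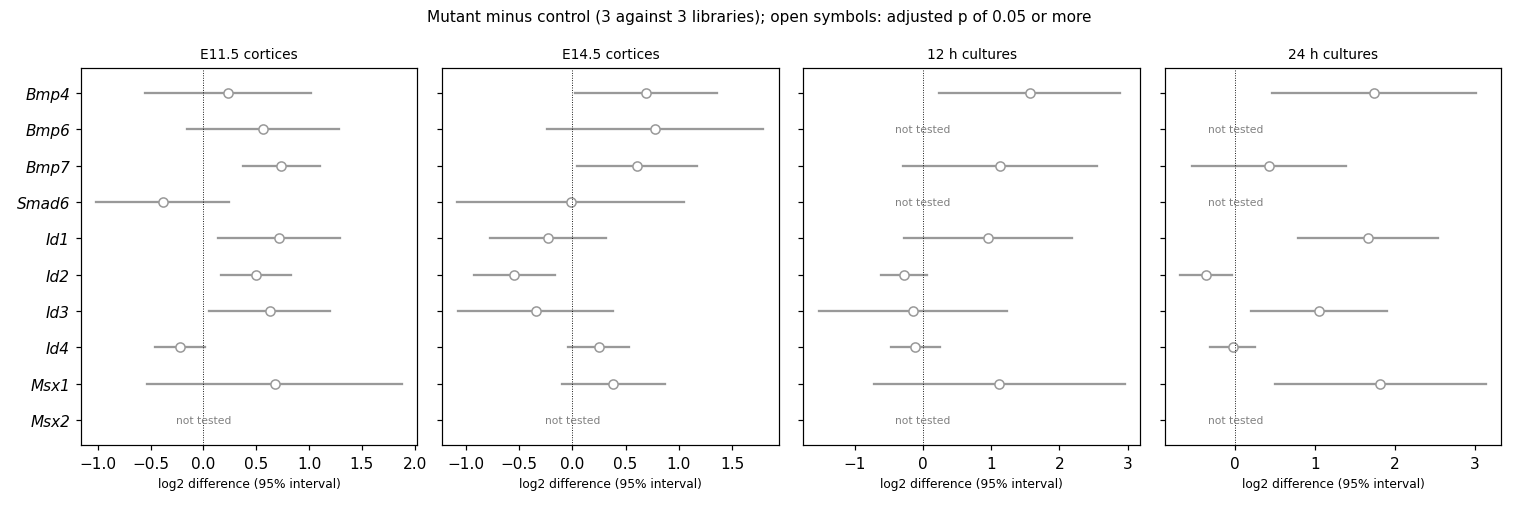
Log2 difference between 3 mutants and 3 controls, with its 95% interval, for each member in the 4 conditions, from limma; open symbols did not pass an adjusted p of 0.05, and members below the count minimum are marked as not tested. No symbol is filled; Bmp4, Bmp7 and Msx1 lie to the right of 0 in all 4 panels, and Id2 lies to the right at E11.5 and to the left in the other 3.

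After 12 hours of culture 0 of 7 members passed with limma, edgeR or DESeq2, and 1 had an unadjusted p below 0.05 with each. With limma 0 of 13389 genes passed (0%) and 4.85% had an unadjusted p below 0.05. After 24 hours 0 of 7 passed with limma, where 0.271% of 13300 genes passed, 0 with edgeR and 1, Id1, with DESeq2. An unadjusted p below 0.05 was reached by 5 with each tool, where 10.6% of all genes reached it with limma. The genotypes separated for Bmp4 and Id1 at 12 hours (11% of all genes did, 5.09% with the mutants above) and for Bmp4, Id1 and Id3 at 24 hours (16.2%, 7.15% with the mutants above); in each of these members the mutants were above. The same 6 embryos gave both times and the E14.5 cortices, so these are not independent observations.

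Bmp4 stood above every control in the 3 mutants at both culture times, without passing the test. At 12 hours mutants 1, 2 and 6 gave 40.9, 74.7 and 28.7, against 15.7, 22.3 and 8.35 for controls 3, 4 and 5 (1.56, SE 0.62, limma adjusted p = 0.91). At 24 hours it was 22.9, 96.2 and 28.8 against 5.46, 20.2 and 12.5 (1.74, SE 0.60, 95% interval 0.46 to 3.02, limma adjusted p = 0.29). Mutant 2 was highest at both times. Without mutant 2 the difference was 1.20 at 12 hours and 1.12 at 24 hours. The choroid plexus and hem markers moved with it: their sum over 13 genes was 9619, 16916 and 5422 against 3064, 4677 and 2524 at 12 hours in the same order of embryos, and 8053, 17664 and 5833 against 2997, 4658 and 2038 at 24 hours. In the mutants most of it was Ttr, the transthyretin of choroid plexus epithelium. In the controls Ttr was 971 to 3608 at 12 hours and 764 to 3509 at 24 hours. In the control library lowest in Ttr it was not most of the sum. Of the 13, 8 were tested at 24 hours and 2, Ttr and Clic6, passed as higher and 1, Rspo3, as lower, while Wnt3a and Wnt2b were at 0 in all 12 cultures. In the E14.5 cortices that sum was 8533, 7542 and 1790 against a range of 3897 to 5933 in controls. There mutant 6 was the lowest in the sum, and its Bmp4 was 29.0 against 26.2 to 27.6 in controls. The part of such cells in the Bmp4 values was not tested.

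Id1 at 24 hours gave the smallest adjusted p among the members between the genotypes in a single condition. At 12 hours mutants 1, 2 and 6 gave 31.2, 28.4 and 59.1, against 22.0, 12.9 and 23.5 for controls 3, 4 and 5 (0.95, SE 0.57, limma adjusted p = 0.91). At 24 hours it was 45.1, 67.8 and 48.9 against 10.9, 15.2 and 25, a 3.16-fold difference on the log2(count + 1) scale (1.66, SE 0.41, 95% interval 0.78 to 2.54, limma adjusted p = 0.11). The lowest mutant was above the highest control at both times. With DESeq2 on whole reads Id1 passed at 24 hours (1.66, DESeq2 adjusted p = 0.041), as it did with all 24 libraries in 1 limma fit (1.66, limma adjusted p = 0.037). Over all the alternatives its adjusted p was 0.037 to 0.94, and its difference 1.40 to 2.44. In the E14.5 cortices of the same embryos the Id1 difference was -0.23 (SE 0.25), and the difference between the genotype effects at 12 hours and in those cortices was 1.18 (SE 0.55, limma adjusted p = 0.70; 0 of 13547 genes passed with limma and 7.04% had an unadjusted p below 0.05). No member passed, or had an unadjusted p below 0.05, in the test between the culture times, in which 0 genes passed with limma, edgeR or DESeq2 and 4.14% had an unadjusted p below 0.05 with limma.

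Id3 at 24 hours gave 40.8, 88.1 and 48.9 for mutants 1, 2 and 6 against 35.5, 16.9 and 31.3 for controls 3, 4 and 5 (1.05, SE 0.40, limma adjusted p = 0.35). At 12 hours it had overlapped, 15.6, 15.8 and 38.5 against 26.7, 15.3 and 31.9. Msx1 at 24 hours was 43.0, 56.7 and 14.8 against 6.83, 18.5 and 5.0, with control 4 above mutant 6 (1.82, SE 0.62, limma adjusted p = 0.29). Its difference was 0.71 with a term for embryo sex and 0.04 with a term for the share of reads on Gm42418, a locus that overlaps ribosomal RNA. At 12 hours Msx1 was 17.5, 82.1 and 22.4 against 4.72, 45.8 and 12.1 (1.12, SE 0.85, limma adjusted p = 0.91). In both genotypes 1 embryo, mutant 2 or control 4, held most of the reads. These were also the highest of their genotype in summed choroid plexus and hem markers.

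Id2 and Id4 did not follow Id1. Id2 gave 5809, 4693 and 3810 in mutants 1, 2 and 6 against 5482, 6038 and 5543 at 12 hours (-0.27, SE 0.15, limma adjusted p = 0.91), and 5908, 4822 and 4716 against 6566, 8259 and 5307 at 24 hours (-0.37, SE 0.15, limma adjusted p = 0.40). Mutants 2 and 6 were below every control at both times and mutant 1 within the control range. Id4 was 823, 1085 and 1019 against 964, 1175 and 1006, and then 856, 956 and 752 against 909, 831 and 868; the 95% interval of its difference at 24 hours was -0.31 to 0.25. Bmp7 was 39.0, 32.6 and 78.8 against 7.87, 45.8 and 23.5, and then 57.3, 77.9 and 21.8 against 28.7, 27.0 and 51.3, so that a different mutant was the highest each time. Bmp6 at 24 hours gave 5.73, 3.04 and 6.11 against 1.37, 0 and 0, where 3 reads correspond to 2.15 to 5.06. Smad6 was 0 to 9.47 in mutant and 0 to 3.37 in control cultures.

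Libraries of the 24-hour cultures differed between the genotypes in other ways. The mutants held 7903426 to 11645213 reads and the controls 4732781 to 5709443, the Gm42418 share was 20.5 to 23.0% against 6.26 to 13.9%, summed liver markers were 103 to 333 against 1.69 to 6.83 and summed meningeal markers 251 to 302 against 160 to 206, in each case without overlap. Apical progenitor markers (8 genes) summed to 12242 to 13502 against 9535 to 10886, and intermediate progenitor markers (5 genes) to 1574 to 1814 against 1312 to 1555, also without overlap. The intermediate progenitor sum was separated at 12 hours too, 1892 to 2191 against 1594 to 1791. With the Gm42418 share as a term the differences at 24 hours were 1.35 for Bmp4, 2.44 for Id1, 2.03 for Id3 and 0.04 for Msx1 (limma adjusted p = 0.94 for the first 3 and 0.996 for Msx1). The part of the other measures was not tested.

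The other genes of the pathway were 11 ligands, 10 receptors and co-receptors, 9 Smads and intracellular regulators, 13 extracellular antagonists and modulators and 8 other targets, with 3 E proteins beside them. Of these 1 passed between the genotypes. Sostdc1, a secreted BMP and Wnt antagonist also known from the choroid plexus, reached 221, 1115 and 218 in mutants 1, 2 and 6 at 24 hours, against 53.3, 92.7 and 42.5 in controls 3, 4 and 5, with no overlap (2.65, SE 0.48, limma adjusted p = 0.041). It no longer passed with a term for sex (1.86, limma adjusted p = 0.32), with a term for the Gm42418 share (1.78, limma adjusted p = 0.94), without control 3, control 5 or mutant 6 (2.57, 2.41 and 3.04, limma adjusted p = 0.12, 0.12 and 0.052), with all 24 libraries in 1 fit (2.65, limma adjusted p = 0.14), with a pseudocount of 0.1 (2.67, limma adjusted p = 0.050) and with quantile normalization (2.63, limma adjusted p = 0.052). At 12 hours it was 214, 619 and 188 against 110, 149 and 31.9. Fstl1, a follistatin-like secreted protein, was 483, 527 and 354 against 184, 199 and 286 at 24 hours (1.03, SE 0.20, limma adjusted p = 0.051); it was named after its values were seen. At 24 hours none of 4 other ligands, 8 receptors and co-receptors, 8 Smads and intracellular regulators, 4 other targets and 3 E proteins tested passed, and at E11.5, E14.5 and 12 hours none of the tested genes of these lists did.

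With age the lists moved both ways. Of the other ligands 1 rose and 2 fell of 6 tested, of the receptors and co-receptors 3 rose and 4 fell of 10, of the Smads and intracellular regulators 1 rose and 0 fell of 8, of the extracellular antagonists 1 rose and 5 fell of 9, of the other targets 1 rose and 4 fell of 6, and of the E proteins 1 rose and 2 fell of 3, with 53.6% of all genes past the threshold. The 6 with the smallest p were these. Tcf4, an E protein that Id proteins bind, rose from 3926 to 4698 at E11.5 to 11256 to 16299 at E14.5 (1.59, SE 0.08, limma adjusted p = 4.9e-10). Tcf3, another E protein, fell from 1058 to 1481 to 702 to 855 (-0.75, SE 0.08, limma adjusted p = 8.6e-07), so the partners of the Id proteins did not move together. Fstl1 fell from 1349 to 2818 to 785 to 1313 (-1.10, SE 0.12), Acvr2b, a type II receptor, from 1230 to 1613 to 726 to 974 (-0.76, SE 0.09), and Hes1, a Notch target that BMP can also raise, from 264 to 452 to 122 to 212 (-1.02, SE 0.15). Dlx5, a homeobox gene that is a BMP target in bone and is expressed by ventral telencephalic neurons, rose from 93.5 to 139 to 169 to 213 (0.79, SE 0.11).

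In culture at 12 hours 2 of 5 other ligands rose, 3 of 10 receptors and co-receptors, 4 of 9 antagonists and 2 of 4 other targets fell, none of 8 Smads passed and 1 of 3 E proteins rose. Over all 13547 genes 16.2% passed as higher and 17.7% as lower. Acvrl1 and Eng, a type I receptor and a co-receptor known from endothelium, went from 21.2 to 54.1 and 37.0 to 83.9 in the E14.5 cortices to 0 to 1.17 and 0 to 3.52 at 12 hours (-5.02, SE 0.67, and -4.66, SE 0.63; limma adjusted p = 8.6e-06 and 1.1e-05). With the cultures near 0 reads the size of these falls depends on the pseudocount: over the alternatives it was -7.88 to -2.99 for Acvrl1 and -5.67 to -3.30 for Eng. The endothelial markers fell with them, 8 of 8. Fstl1 (-1.38, SE 0.16), Nbl1, an antagonist of the DAN family (-1.61, SE 0.28), and Hes1 (-1.76, SE 0.26) also fell. Bmp3, a ligand that opposes the other BMPs, rose from 27.1 to 59.8 to 64.5 to 115 (1.08, SE 0.22, limma adjusted p = 0.00083). Between 12 and 24 hours 1 gene of these lists passed, Chrdl1, a chordin-like antagonist, from 6.29 to 22.3 to 32.4 to 50.6 (1.69, SE 0.35, limma adjusted p = 0.026). Its call was lost without a filter (limma adjusted p = 0.075) and when single libraries were left out: controls 3, 4 and 5 and mutants 1, 2 and 6 at 24 hours, and control 3 and mutant 2 at 12 hours (limma adjusted p = 0.051 to 0.090).

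The genes outside the 10 whose profiles were nearest, by the root mean square difference of centred log2 values over the 24 libraries among 13678 genes, were named as a description. Otx2, a hem and choroid plexus factor, was nearest to Bmp4 (0.60), followed by Tnfaip8 (0.62). Rbms1 (0.41) and Fstl1 (0.48) were nearest to Id1, and Igfbp5 (0.62) and Prrx2 (0.63) to Id3. For Id2 they were B930095G15Rik (0.30) and Cnksr2 (0.30), and for Id4 Hmgn2, a chromatin protein (0.24), and Pgap2 (0.25). Tmem64 (0.48) and Slc35a3 (0.49) were nearest to Bmp7, Flywch2 (0.68) and Ildr2 (0.70) to Bmp6, and Ripply3 (0.63) and Cdc42ep5 (0.64) to Smad6. For Msx1 they were Mme (0.69) and Cnn2 (0.70) and for Msx2 Oaf (0.66) and Mmp2 (0.68). Among the members themselves the nearest to Bmp4 was Msx1 (0.86) and the nearest to Id1 was Id3 (0.76), whereas Id2 was far from every other member, with Bmp7 the nearest at 1.5. These 24 libraries share embryos, age and medium.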

How the data were processed

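RNA from neocortices and cultured progenitors was sequenced from transcript 3' ends with a stranded kit. Per the submitters' processing notes and the methods, the authors aligned reads to GRCm38 with TopHat2 2.0.10 (on Bowtie 1.0.0, with SAMtools 0.1.19) and counted genes by HTSeq 0.6.1. They deposited normalized read counts, a signal in which the whole reads of a library are divided by 1 size factor. All values above 0 in the 24 libraries were whole multiples of the smallest value in their library (100%, within a relative tolerance of 1e-06). Whole reads were used for 23 of 24 libraries. Those of E11.5 control D were marked as not recovered and were not used, although its values were whole multiples too. Count models were therefore run only without E11.5 libraries.

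Values were tested as log2(normalized count + 1) with limma 3.58.1 (R 4.3.3, intensity trend, a gene mean of 10 or more over the fitted libraries, two-sided, Benjamini-Hochberg over all genes, threshold 0.05), since the deposited values are not counts. This was checked on simulated data. Alternatives were a pseudocount of 0.1 or of 5, a filter at 50 or none, quantile normalization, edgeR 4.0.16 and DESeq2 1.42.0 on whole reads, leaving out each library, and terms for sex, litter, embryo or Gm42418 share. Sex was inferred from the level of Xist against that of Y-linked genes in each library. Replicates were separate embryos, of 1 or 2 litters per age by the prefix in their titles. The litter term used that prefix. The limits given for 0 reads cover counting error only.

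Libraries that carry 1 embryo number (cortex, 12 hours, 24 hours) come from the same animal per the labels. Over 18 pairs of their deviations from the group means, r was -0.11 to 0.24 (median 0.14; 12 above 0.1). The paired fit used the embryo as a block.

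The members and the pathway and marker lists were chosen with earlier results of these data known. Named were the 10 members, other pathway genes past the threshold (at most 6 per comparison, by p), the 2 nearest profiles of each member, and Cep135. Gene positions are GENCODE on GRCm38, and promoter windows RefSeq on GRCm38.p6. 1 marker sum is not reported here.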

Additional observations from a re-analysis of the deposited data

Results flagged for a closer look

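Id2 was flagged because the mutants lay on opposite sides of the controls at the 2 ages: above all 3 controls at E11.5 (1626 to 2471 against 1251 to 1442) and below all 3 at E14.5 (1535 to 2397 against 2615 to 3234). The difference of the 2 genotype effects was -1.04 on the log2 scale (SE 0.25, limma adjusted p = 0.50), so it did not pass over all genes. Over the alternatives run it was -1.17 to -0.85, with adjusted p of 0.22 to 0.95. Groups of 3 libraries were not searched for outliers.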

How the results depend on the processing

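Of 1338 values recomputed for single genes under an alternative, 1291 kept their direction and their side of the threshold, 21 lost the call, 6 gained one and 20 changed sign, the last in 7 results, none of which passed in the reported fit. The number of members past the threshold became 1 instead of 0 between the genotypes at 24 hours with DESeq2 on whole reads and with all 24 libraries in 1 fit (Id1 in both), 0 to 1 over the 12 cortices when single libraries were left out (Bmp7, without control 5), and 3 instead of 5 for culture with a filter at a mean of 50, under which fewer members were tested. Among the genotype differences within a condition, these changed sign, in log2 differences. At E11.5 Bmp4 was -0.25 without control F and mutant B and -0.18 to 0.71 when single libraries were left out. At E14.5 Smad6 was 0.074 with edgeR, 0.058 with DESeq2, 0.64 with a sex term and -0.15 to 0.27 with libraries left out, and Id3 was 0.13 with a sex term and -0.65 to 0.010 with libraries left out. At 12 hours Id3 was 0.69 with a sex term and -0.56 to 0.068 with libraries left out, and Id4 -0.19 to 0.0095. At 24 hours Bmp7 was -0.62 with a sex term, and Id4 was 0.026 with quantile normalization, 0.033 with the Gm42418 term and -0.12 to 0.058 with libraries left out. The cause was not tested. All 3 E14.5 controls were male and 2 of the 3 mutants female, so a sex term there rests on mutant 6. In the paired fit, with the embryo as a replicate block, 5 members passed for culture, 0 for culture time and 0 in the 2 differences of genotype effects, as without it; over all genes 4888, 132, 1 and 0 passed instead of 4589, 90, 0 and 0. Over all genes DESeq2 called 64, 9 and 182 between the genotypes at E14.5, 12 and 24 hours, where limma called 10, 0 and 36. With standardized profiles the nearest gene was the same for 1 of 10 members, Id1. Counts under about 10 (Bmp6, Smad6 and Msx2 in culture) limit any fold there. The 24-hour controls 3, 4 and 5 held few reads of other members as well. Id1 had 8, 9 and 20, Bmp4 4, 12 and 10, and Msx1 5, 11 and 4, which limits their genotype folds too.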
